A study of Mus musculus with 17 samples.

Results

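The transcripts of 7 paraspeckle proteins, Nono, Sfpq, Pspc1, Rbm14, Hnrnpk, Tardbp and Matr3, were followed in single-nucleus RNA counts from mouse brain. They were chosen by name, with no measured value in the rule, and all 7 were among the 26131 genes of the deposited matrix. Levels are given as unique molecular identifiers (UMIs) of the gene per 1000000 UMIs of all genes other than Malat1 (CPM), because Malat1 is the target of the compounds and takes a share of the UMIs that differs with treatment.

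Paraspeckles are RNA-protein bodies of the nucleus that assemble on the long isoform of Neat1, a noncoding RNA encoded beside Malat1. Nono, Sfpq and Pspc1 form the DBHS family, whose members pair with each other, bind Neat1 and make up the core of the body. The other 4 also act outside it: Rbm14 is an RNA-binding coactivator needed for assembly, Hnrnpk binds pre-mRNA and favours the long Neat1 isoform, Tardbp encodes the splicing regulator TDP-43, which is linked to motor neuron disease, and Matr3 is an RNA-binding protein of the nuclear matrix. Both Malat1 and paraspeckles are nuclear, so the counts of nuclei read the compartment in which the target RNA lies.

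All 17 animals were female mice, 2.3 months old and homozygous for a knock-in of human TfR, the transferrin receptor, and the tissue was posterior brain. Each received 4 intravenous doses over 24 days and was sampled 72 hours after the last: saline (n = 4), Malat1 ASO, a free antisense oligonucleotide, at 2 mg per kg (n = 4), anti-TfR:Malat1, an oligonucleotide joined to an antibody against the receptor, at 50 mg per kg (n = 6), or OTV:Malat1, an oligonucleotide on a receptor-binding transport vehicle, at 50 mg per kg (n = 3). The saline animals' dose label also reads 50 mg per kg, as for the conjugates, and was read as the schedule of 4 doses only. The controls thus carried the human receptor too. A deposited batch number split the animals into 4 batches of 3, 4, 5 and 5. Every batch held saline, Malat1 ASO and anti-TfR:Malat1 animals, and batch 1 held no OTV:Malat1 animal.

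The matrix held 284074 nuclei, of which 75282 carried the deposited label of oligodendrocytes, the myelinating cells of the brain, and 193268 that of neurons. Oligodendrocyte-labelled nuclei gave 4120611 to 9483846 UMIs an animal, with 1096 to 1836 UMIs a nucleus on average. The defining markers were present: the summed level of 6 markers (Mbp, Mog, Mag, Mobp, St18 and Opalin) was 12131 to 14591 CPM in every animal, while 7 neuronal markers summed to 668 to 1574 CPM and 5 microglial ones to 59.8 to 95.3 CPM. Cluster 13, led by Pdgfra and Vcan, markers of oligodendrocyte precursors, carried the neuron label in 94.3% of its nuclei, so the neuron label holds that cluster too. Cluster 17, led by 9630013A20Rik, Kif19a and Bmp4, had 61.2% of nuclei under the neuron label. Cluster 18, led by Inpp5d, Dock8 and Ly86, had 65.2%. The authors had called 16.8% of nuclei doublets and left them in, 22.4% of neuron-labelled and 4.61% of oligodendrocyte-labelled nuclei. The part of this mixing in differences between the labels was not tested. Of 273792 distinct barcodes, 10044 occurred in more than 1 library, with at most 0.623% of the smaller library shared in any pair.

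By GENCODE M21 (GRCm38), Nono lies at chrX:101429318-101448591 on the plus strand, Sfpq at chr4:127021324-127037013 on the plus strand, Pspc1 at chr14:56720710-56778316 on the minus strand and Rbm14 at chr19:4800569-4811634 on the minus strand. Hnrnpk lies at chr13:58391142-58403343 on the minus strand and Tardbp at chr4:148612382-148627019 on the minus strand. Matr3 is read from the plus strand. Sfpq overlaps Gm12940 on its own strand, which had 31.1 to 63.4 CPM in oligodendrocyte-labelled nuclei, so reads there could be split between them. Tardbp overlaps Masp2 (2.18 to 5.17 CPM) and Hnrnpk overlaps Rmi1 (9.37 to 21.0 CPM), both on the other strand. Rbm14 overlaps Gm21992 on its own strand and Gm21844 (0.0 to 1.44 CPM) on the other. Matr3 overlaps Gm28285 and Gm36989 on its own strand and AC121821.3 on the other, and Hnrnpk also overlaps Mir7-1. The labels and processing notes do not say how the counting treated strand and overlaps.

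Upstream sequence was read from RefSeq (GRCm38.p6) for 6 members. The 250 bases before the RefSeq start are shown for 3 whose windows lie wholly outside the annotated gene: Sfpq, which was higher in oligodendrocytes than in neurons, and Pspc1 and Rbm14, for which that difference did not pass its test. Capitals mark CCAAT on either strand, and in CCAATTGG the sites of both strands overlap.
Sfpq, chr4:127021051-127021300, plus strand: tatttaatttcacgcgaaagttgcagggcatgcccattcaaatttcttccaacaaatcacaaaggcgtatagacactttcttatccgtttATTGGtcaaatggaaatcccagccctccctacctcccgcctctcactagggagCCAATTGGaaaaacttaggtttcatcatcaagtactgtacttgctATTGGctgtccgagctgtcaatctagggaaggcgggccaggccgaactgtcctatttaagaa
Pspc1, chr14:56778319-56778568, minus strand: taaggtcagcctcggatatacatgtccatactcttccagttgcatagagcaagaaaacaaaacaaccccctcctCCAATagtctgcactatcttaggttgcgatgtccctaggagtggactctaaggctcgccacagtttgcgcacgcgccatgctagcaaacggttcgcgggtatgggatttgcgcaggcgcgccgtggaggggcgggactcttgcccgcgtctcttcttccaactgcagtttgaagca
Rbm14, chr19:4811635-4811884, minus strand: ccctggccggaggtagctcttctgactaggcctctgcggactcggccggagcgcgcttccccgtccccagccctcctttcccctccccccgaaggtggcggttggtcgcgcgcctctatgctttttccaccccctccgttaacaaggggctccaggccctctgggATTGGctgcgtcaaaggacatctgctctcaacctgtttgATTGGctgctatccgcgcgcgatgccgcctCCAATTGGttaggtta
CCAAT or its reverse ATTGG, counted with overlaps, occurred 4 times in the Sfpq window, 4 times in Rbm14, 1 time in Pspc1 and 2 times each in Nono and Hnrnpk, and not in the window of Tardbp. It was present in 33.8% of all 32851 RefSeq windows of this length. GGGCGG or its reverse CCGCCC occurred in Tardbp (3 times) and Pspc1 (1 time) and in 32.7% of all windows, and TATAAA or its reverse TTTATA in none of the 6 members and in 12.4% of all windows. These are letter matches only and say nothing of binding.

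In oligodendrocyte-labelled nuclei no member passed the test of a change with any of the 3 compounds, while the target RNA fell with OTV:Malat1. Malat1 took 7.83 to 11.96% of UMIs there in saline animals and 1.497 to 1.90% in OTV:Malat1 animals, a log2 change of -2.79 ± 0.19 (SE) with an adjusted p of 8.74e-08 (edgeR quasi-likelihood test). Among the 7 members, the changes in the same comparison ran from -0.12 to 0.061 on the log2 scale, and 0 of 7 passed the adjusted threshold of 0.05, with 0 at an unadjusted p under 0.05 and 0 by DESeq2. Over all 14419 genes tested, 0.0208% passed in this comparison. The deposited counts of nuclei read RNA, not protein or the bodies themselves.

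In the DBHS family, Sfpq, a splicing factor and transcriptional regulator, had 274, 215, 227 and 269 CPM in the 4 saline animals. The OTV:Malat1 animals had 245, 224 and 279 CPM, inside the saline range but for the highest. The anti-TfR:Malat1 animals ran from 226 through a median of 252 to 302 CPM, and the Malat1 ASO animals had 310, 229, 221 and 257 CPM. The 4 groups overlapped throughout, and the log2 change with OTV:Malat1 was -0.035 ± 0.14 (SE), a fold of 0.976 with a 95% interval of 0.794 to 1.20.

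Nono, which pairs with Sfpq, had 67.2, 58.1, 54.9 and 51.6 CPM in saline and 55.8, 59.8 and 53.0 CPM in OTV:Malat1 animals. The treated animals lay wholly within the saline range, and the fold was 0.935 (95% interval 0.788 to 1.11). Malat1 ASO animals had 73.5, 54.7, 56.6 and 49.8 CPM, and anti-TfR:Malat1 animals 49.7 to 58.5 CPM with a median of 55.2. Pspc1, a DBHS protein used as a marker of paraspeckles, had levels of 123, 110, 109 and 140 CPM in saline against 110, 124 and 122 CPM in OTV:Malat1 animals. Its fold was 0.948 (0.806 to 1.11), again with overlapping groups.

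Rbm14, the coactivator, was counted from 77 to 151 UMIs an animal in oligodendrocyte-labelled nuclei, the fewest of the 7. It had 18.1, 19.0, 16.8 and 20.02 CPM in saline and 18.6, 17.4 and 19.96 CPM in OTV:Malat1 animals, for a fold of 0.971 (0.812 to 1.16). Hnrnpk, the pre-mRNA binder, had 64.1, 109 and 72.9 CPM in OTV:Malat1 against 71.4, 73.6, 85.4 and 74.0 CPM in saline. Its anti-TfR:Malat1 animals ran from 60.2 through 81.3 to 102 CPM, so treated animals lay both above and below the saline range. The OTV:Malat1 fold was 1.04 (0.843 to 1.29). The highest animals, 109 CPM with OTV:Malat1 and 102 CPM with anti-TfR:Malat1, both belonged to batch 3.

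Tardbp had 68.1, 64.4, 68.6 and 81.1 CPM in saline and 68.4, 62.0 and 71.4 CPM in OTV:Malat1 animals. Its log2 change of -0.12 ± 0.11 (SE) was the furthest from 0 of the 7 in this comparison and was close to its own error. Matr3 had 82.0, 103, 117 and 103 CPM in saline and 108, 124 and 84.0 CPM in OTV:Malat1 animals, a fold of 1.01 (0.799 to 1.27). Its 4 Malat1 ASO animals had 81.7, 123, 120 and 119 CPM, of which the low one stood apart. The 95% intervals of the 7 folds with OTV:Malat1 had a lowest bound of 0.781 and a highest of 1.29 over the genes, and each gene is limited by its own interval.

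**Figure D1:**
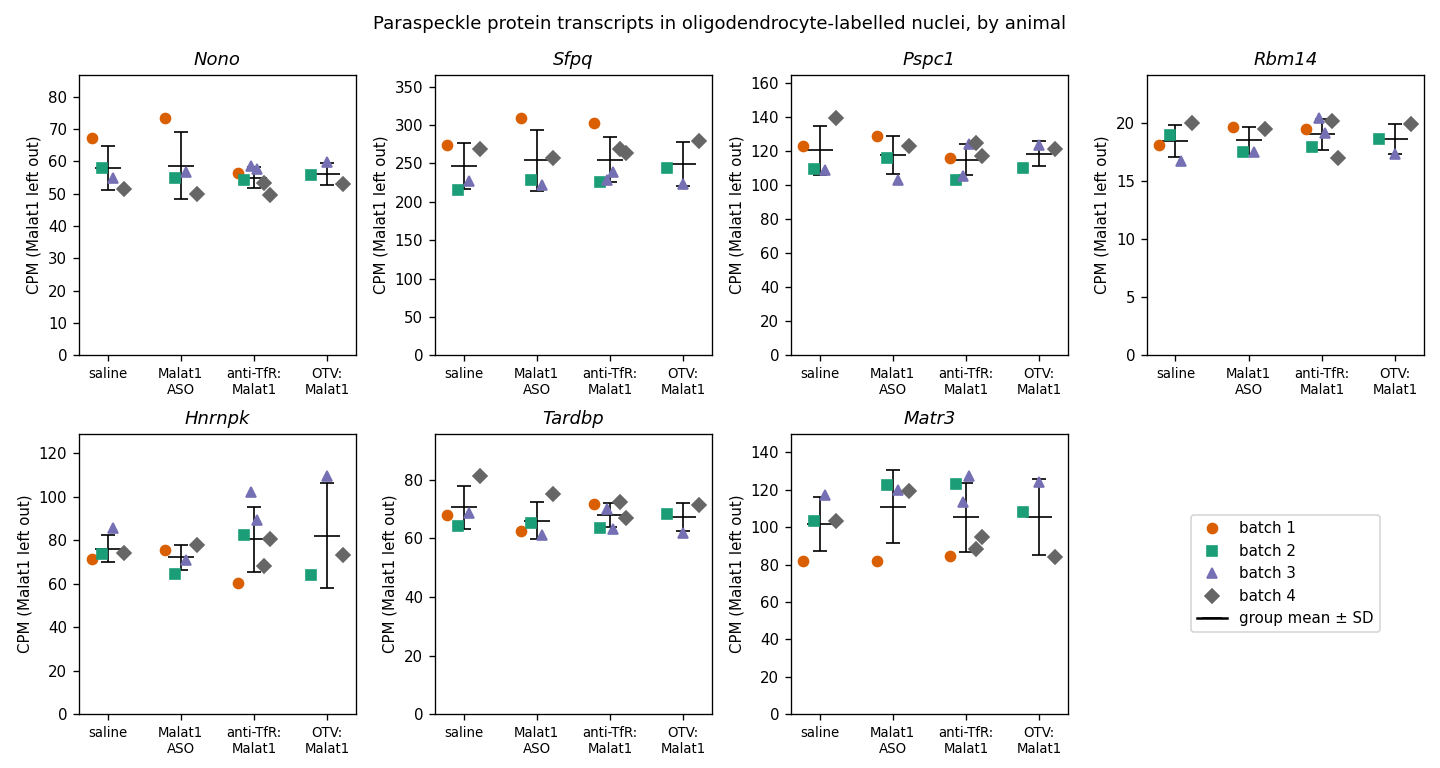
Levels of each member in oligodendrocyte-labelled nuclei, in CPM without Malat1, with 1 point an animal, marked by batch, and the group mean ± SD. The groups overlap in every panel, and the 3 animals of batch 1 lie at 274 to 310 CPM for Sfpq and at 81.7 to 84.4 CPM for Matr3.

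The other 3 comparisons gave small values too. With anti-TfR:Malat1 against saline the member changes ran from -0.091 (Nono) to 0.066 (Hnrnpk), with Malat1 ASO from -0.097 (Tardbp) to 0.13 (Matr3), and for OTV:Malat1 against anti-TfR:Malat1 from -0.077 (Sfpq) to -0.0028 (Pspc1). In each of these, 0 of 7 members passed by edgeR, 0 had an unadjusted p under 0.05 and 0 passed by DESeq2, beside 0.0%, 0.0% and 0.00694% of all genes tested. No member had groups of animals that did not overlap in CPM in any of the 4 comparisons, a state found in 4.02% of genes for OTV:Malat1 against saline, 0.423% for anti-TfR:Malat1, 1.05% for Malat1 ASO and 1.63% for OTV:Malat1 against anti-TfR:Malat1. The median member change with OTV:Malat1 was -0.043, beside 0.010 over all genes. With anti-TfR:Malat1 it was 0.034 beside -0.0032, and with Malat1 ASO 0.0046 beside -0.0028. For OTV:Malat1 against anti-TfR:Malat1, on log2(CPM + 1) without Malat1, it was 0.0032 beside 0.058. Within batches of that comparison Nono (0.042 to 0.043) and Pspc1 (0.0078 to 0.11) were above 0 in 3 of 3, against the sign of the fit. The other members had mixed signs there. The 3 comparisons with saline share its 4 animals. The scaling bears on the signs: on log2(CPM + 1) without Malat1, 4 of 7 members were above 0 with OTV:Malat1, and with Malat1 counted in the total all 7 were, from 0.064 to 0.20. That scaling moved the median of all genes by 0.12, from 0.054 to 0.18. With 3 animals against 4 the exact permutation test cannot give a p under 0.05, so it could call no member in this comparison. Malat1 itself had -0.61 with anti-TfR:Malat1 (unadjusted p 0.000404, adjusted p 1.0, edgeR) and -0.074 with Malat1 ASO, neither past the threshold. Within batches its log2 ratio to saline was below 0 in 4 of 4 with anti-TfR:Malat1 (-0.996 to -0.407). With Malat1 ASO it was below 0 in 3 of 4 (-0.168 to 0.109).

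Setting batch in the model narrowed the errors and left every member short of the threshold. The SE of Sfpq with OTV:Malat1 fell from 0.14 to 0.071, and its change moved from -0.035 to 0.055. Matr3 moved from 0.012 to -0.095 and Nono from -0.097 to -0.018. Taken batch by batch, the treated animal against its saline counterpart gave log2 ratios from -0.020 to 0.18 for Sfpq, from -0.057 to 0.12 for Nono and from -0.30 to 0.080 for Matr3, 1 animal against 1 in each of 3 batches, and none of these had 1 sign in all 3. For Malat1 the same ratio was -2.89 to -2.48.

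**Figure D2:**
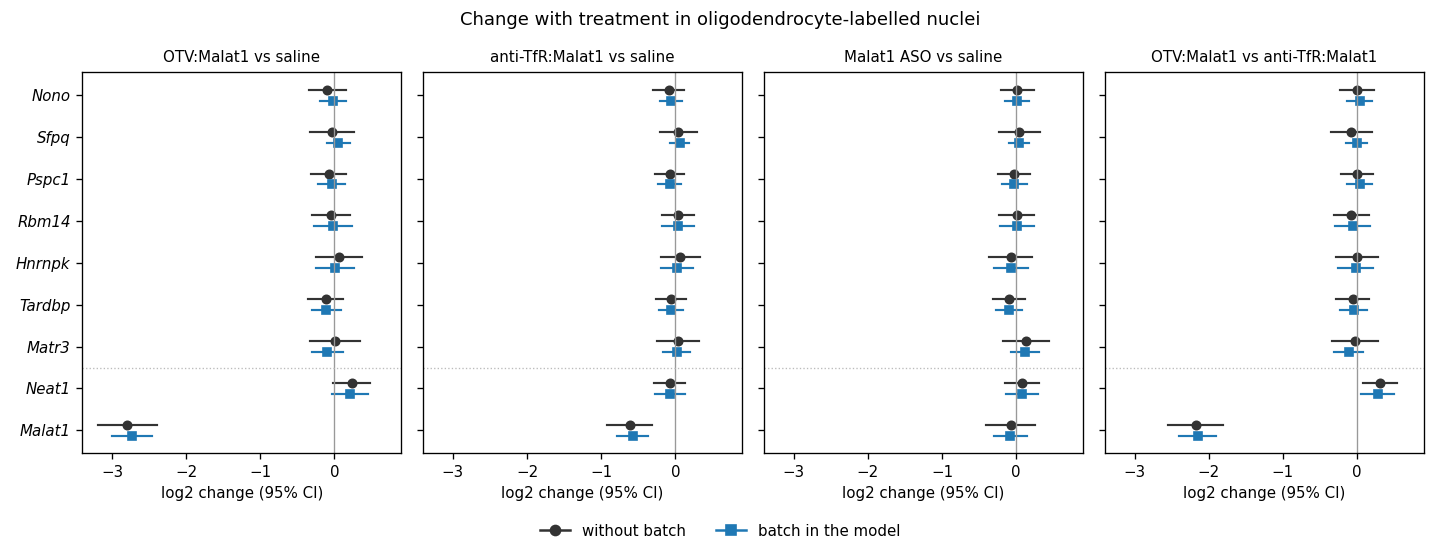
Log2 change of each member, of Neat1 and of Malat1 in oligodendrocyte-labelled nuclei with its 95% confidence interval, without batch (circles) and with batch in the model (squares), in 4 comparisons. All member intervals cross 0, while Malat1 lies at -2.79 with OTV:Malat1.

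Neat1, the scaffold RNA, had 1234, 1074, 1230 and 887 CPM in saline and 1442, 1393 and 1193 CPM in OTV:Malat1 animals. These counts are per gene and do not separate the long isoform, on which paraspeckles assemble, from other Neat1 RNA. The 2 highest treated animals lay above the saline range and the lowest within it, and the log2 change of 0.23 ± 0.12 (SE) had an unadjusted p of 0.0622 and an adjusted p of 0.968. Its within-batch ratio was positive in 3 of 3 batches (0.18 to 0.43), each against 1 saline animal. With Malat1 ASO the ratio to the saline animal of the batch was positive in 2 of 4 batches (-0.17 to 0.33). The Neat1 change with OTV:Malat1 differed from that in neurons by -0.021 ± 0.12 (SE), not past the threshold. For OTV:Malat1 against anti-TfR:Malat1 the Neat1 change was 0.31 ± 0.11 (SE), with an unadjusted p of 0.0104 and an adjusted p of 0.991 (edgeR).

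A further list of 31 genes for other paraspeckle proteins gave 29 that could be tested in oligodendrocyte-labelled nuclei. In each of the 4 comparisons 0 of 29 passed, and 1 (Hnrnph1, an RNA-binding splicing factor, at -0.28 with OTV:Malat1) and 1 (Rbmx, a splicing regulator, at -0.18 with anti-TfR:Malat1) had an unadjusted p under 0.05; both were picked out for that p. With OTV:Malat1, Dazap1, a splicing regulator, had 0.049 ± 0.097 (SE), Smarca4, a chromatin remodelling ATPase, 0.0056 ± 0.094, and Hnrnph3, a splicing factor, -0.15 ± 0.091. The median of the list in that comparison was -0.020, with 11 of 29 above 0, beside 0.010 over all genes. With anti-TfR:Malat1 it was -0.053, with 5 of 29 above 0, beside -0.0032 over all genes, and with batch in the model -0.062, with 4 of 29 above 0, beside -0.0022. With Malat1 ASO it was -0.0094 (13 of 29 above 0), and for OTV:Malat1 against anti-TfR:Malat1 0.013 (18 of 29). The value with batch in the model is given for anti-TfR:Malat1 alone. Genes of the list are measured in the same animals, and the share of all genes above 0 was not counted, so these are descriptions with no test.

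The 5 other labels tested, neurons, astrocytes, microglia, vascular cells and perivascular macrophages, gave 0 members past the threshold in each of the 4 comparisons. The label Glia (225 nuclei) held too few nuclei in most animals and was not tested. In neuron-labelled nuclei the 7 changes with OTV:Malat1 ran from -0.14 to 0.036, and over all nuclei from -0.13 to 0.045. In astrocyte-labelled nuclei they ran from -0.065 to 0.61, and member counts there went down to 4 UMIs an animal. In microglia-labelled nuclei the changes ran from -0.79 to 0.16. The -0.79 belonged to Rbm14, on 3, 5 and 11 UMIs in OTV:Malat1 animals and 11 to 21 in saline animals, with an unadjusted p of 0.0446 and an adjusted p of 0.973. Vascular nuclei left 5 members after the filter on low counts and perivascular macrophages 1 (Sfpq), again with none past the threshold. Of all genes tested there, 3312 and 1418, 0.0% passed in each of the 4 comparisons. The share of all genes past the threshold with OTV:Malat1 against saline was 0.0% in neurons, 0.0117% in astrocytes and 0.011% in microglia, and 0 of 7 members passed there by DESeq2 too. In the other comparisons it was 0.0% in these labels, except 0.0117% in astrocytes for OTV:Malat1 against anti-TfR:Malat1.

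The change with treatment was also compared between oligodendrocytes and neurons. The difference in log2 change with OTV:Malat1 ran from -0.063 to 0.091 over the 7, with 0 of 7 past the threshold in any of the 4 comparisons and 0 at an unadjusted p under 0.05. Over all 20187 genes tested 0.00495% passed, which was Malat1, with a difference of -2.16 ± 0.12 (SE) on the log2 scale, a larger fall in oligodendrocytes.

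The level of some members differed between cell types. In the 4 saline animals, with the animal as a block, 4 of 7 were higher in oligodendrocytes than in neurons: Hnrnpk by 0.66 ± 0.057 (SE), Nono by 0.63 ± 0.058, Matr3 by 0.28 ± 0.053 and Sfpq by 0.23 ± 0.053 on the log2 scale, with adjusted p-values of 1.67e-08, 3.53e-08, 0.000143 and 0.000879 (edgeR). No member passed as lower. Of all 18467 genes tested 80.3% passed in this comparison, 37.3% as higher and 43.1% as lower. Rbm14 (0.14), Tardbp (0.066) and Pspc1 (0.033) did not pass. The median over all genes was -0.084.

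Hnrnpk had 71.4, 73.6, 85.4 and 74.0 CPM in oligodendrocytes and 44.2, 49.9, 48.4 and 41.8 CPM in neurons of the same saline animals. The ranges did not meet, and the order held in 17 of 17 animals over all groups. Nono had 67.2, 58.1, 54.9 and 51.6 CPM against 42.8, 35.6, 36.2 and 29.8 CPM, also with no overlap and with the same order in 17 of 17 animals. Such a separation of the saline animals was common between these labels: 68.1% of all genes tested showed it, 31.5% with oligodendrocytes higher, and 2 of the 7 members did. Sfpq and Matr3 overlapped between the labels over animals, yet were higher in oligodendrocytes within 17 of 17. Rbm14 was also higher in 17 of 17 (4 of 4 saline animals) but did not pass in the saline animals. It passed without doublets (0.22, adjusted p 0.0331, edgeR), where 80.9% of all genes passed, and with all 17 animals (0.23), where 90.4% did. Tardbp was higher in 14 of 17 and Pspc1 in 14 of 17. The share of all genes with the same order within every animal was not counted. Oligodendrocytes had the lower depth, 1284 to 1836 UMIs a nucleus in saline against 4433 to 6620 in neurons. The part of depth was not tested.

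Microglia had the higher level of Tardbp (-0.45 ± 0.12 (SE) for oligodendrocytes against microglia, adjusted p 0.00125, edgeR) and of Nono (-0.37 ± 0.12, adjusted p 0.00741), 2 of 7 beside 57.0% of all genes (27.9% higher and 29.1% lower in oligodendrocytes). Tardbp had 106, 121, 72.6 and 153 CPM in microglia of saline animals and 64.4 to 81.1 CPM in oligodendrocytes, and was lower in oligodendrocytes in 17 of 17 animals. Nono, Sfpq, Hnrnpk and Rbm14 were also lower in CPM in oligodendrocytes than in microglia in 4 of 4 saline animals. Over all groups oligodendrocytes had the higher CPM in 1, 2, 2 and 4 of 17. How many of all genes kept 1 order within animals, against microglia or astrocytes, was not counted. The fit did not keep this order for Sfpq (0.047), and Hnrnpk (-0.062) and Rbm14 (-0.24) did not pass. Pspc1 and Matr3 had the higher mean CPM in microglia, but fitted values of 0.13 and 0.15. With all 17 animals 4 of 7 members passed against microglia, where 72.0% of all genes passed. DESeq2 called neither Tardbp nor Nono, and without saline replicate 2 neither passed (adjusted p 0.0529 and 0.0703). Against astrocytes 1 of 7 passed beside 47.9% of all genes (21.2% higher and 26.8% lower): Sfpq, higher by 0.32 ± 0.099 (SE), with 4 of 4 saline animals in that order. Hnrnpk (0.32), Matr3 (0.30) and Nono (0.38) did not pass, at adjusted p-values of 0.0586, 0.0529 and 0.0547, and the count reached 5 with no filter on low counts, where 32.4% of all genes passed, and 4 with all 17 animals, where 68.5% did.

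Against vascular nuclei Sfpq alone of the 7 passed, at 0.53 ± 0.19 (SE), beside 34.6% of all genes (18.3% higher and 16.2% lower). The CPM of Sfpq did not separate them, with 364, 165, 255 and 149 in vascular nuclei and 215 to 274 in oligodendrocytes, and the median of all genes in this fit was 0.17. The call was lost by DESeq2 and without saline replicate 2 or replicate 4 (0.46 and 0.31). Against perivascular macrophages 0 of 7 passed beside 27.1% of all genes, 18.1% higher and 9.01% lower (1 at an unadjusted p under 0.05). The median of all genes there was 0.58, so fitted values are read against that shift. The CPM order was the reverse of the fit for Sfpq (294 in macrophages, 246 in oligodendrocytes) and for Pspc1 (163 and 121).

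In the order of mean CPM over 6 labels in saline animals, neurons were last for 6 of the 7 members and astrocytes for Rbm14. Microglia led for Nono (87.7 ± 8.60, SD, n = 4) and Tardbp (113 ± 33.4), vascular nuclei for Hnrnpk (125 ± 71.7), Matr3 (154 ± 45.4) and Rbm14 (28.0 ± 19.6), and perivascular macrophages for Sfpq (294 ± 43.5) and Pspc1 (163 ± 94.7). Oligodendrocytes had rank 3 for Nono, Sfpq, Rbm14, Hnrnpk and Matr3 and rank 4 for Pspc1 and Tardbp. Neighbours in each order overlapped in their range over animals except astrocytes and neurons for Hnrnpk, labels between which 49.6% of genes tested did not overlap. The vascular and macrophage values rest on 34 to 119 nuclei an animal and on few UMIs. In vascular nuclei Hnrnpk had 6 to 20 UMIs an animal, Matr3 11 to 18 and Rbm14 0 to 5. In macrophages Sfpq had 9 to 14 and Pspc1 3 to 11.

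**Figure D3:**
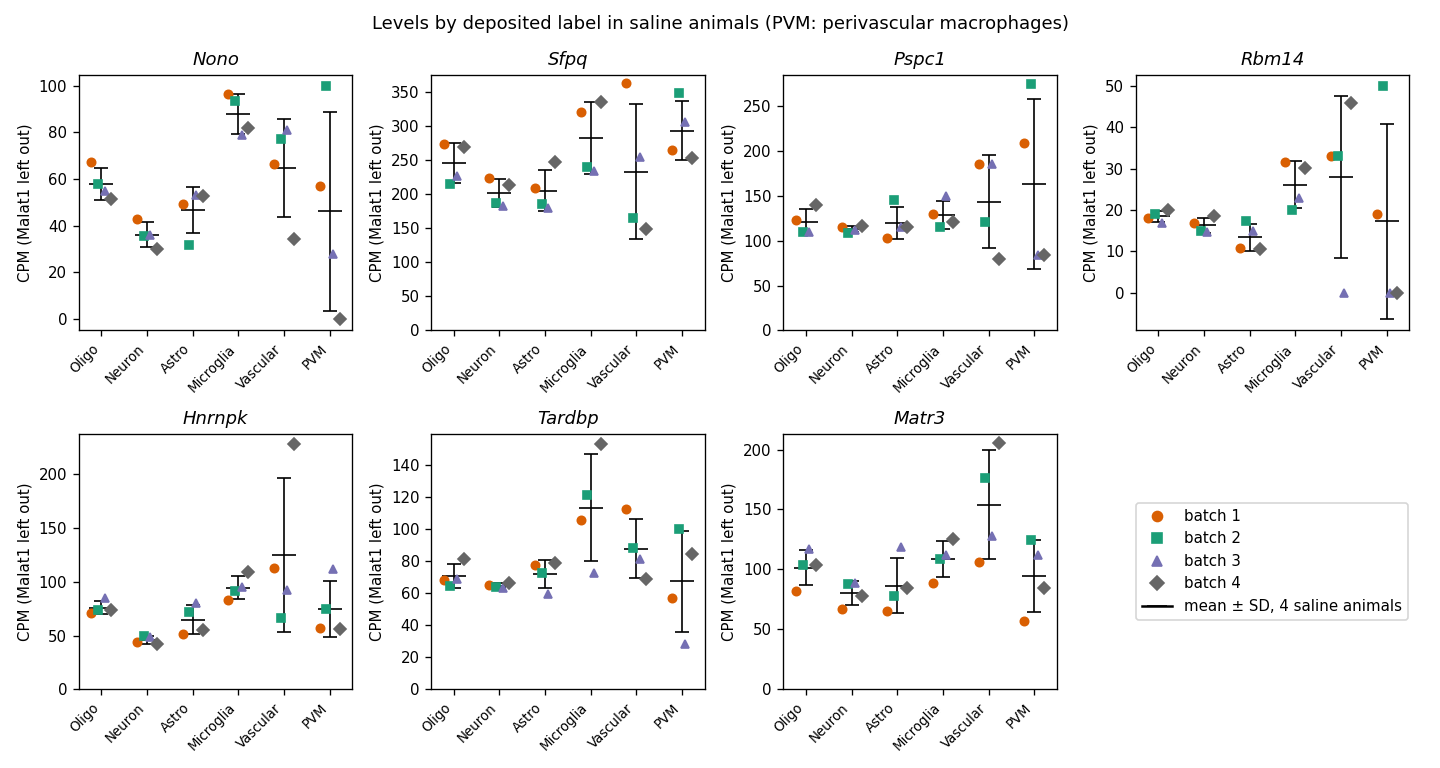
Levels of each member in CPM without Malat1 by deposited label in the 4 saline animals, with 1 point an animal, marked by batch, and the mean ± SD. Hnrnpk in neurons (41.8 to 49.9 CPM) lies below every oligodendrocyte point (71.4 to 85.4 CPM), and the vascular and macrophage points spread widely.

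Across the 18 deposited clusters with 200 or more saline nuclei, the span from lowest to highest differed among members. Nono ranged 3.08-fold, from 27.8 CPM in cluster 3 to 85.5 CPM in cluster 11, and Hnrnpk 2.32-fold between the same clusters, from 40.0 to 92.8 CPM. Cluster 3 was all but wholly neuron-labelled, and cluster 11, led by Arhgap45, Inpp5d and Siglech, was mostly labelled microglia. Pspc1 was the flattest, at 1.39-fold (97.2 to 135 CPM). Sfpq was highest in a neuronal cluster, number 9 (283 CPM), led by Dsp, Glis3 and Vwa3b, ahead of cluster 11 (274 CPM). The clusters come from the same nuclei and genes, so these are descriptions with no test.

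The oligodendrocyte label fell mostly into clusters 0, 2 and 15. Hnrnpk had 72.2 CPM in cluster 0, 86.8 in cluster 2 and 69.2 in cluster 15, Matr3 had 99.3, 118 and 87.1 CPM, and Rbm14 had 19.1, 21.0 and 14.5 CPM. All of them were highest in cluster 2, which also had the fewest UMIs a nucleus (956, against 1567 and 2816) and of whose nuclei 83.4% carried the oligodendrocyte label; the part of these in the levels was not tested. The saline animals overlapped between clusters 0 and 2 for all 3 genes. Between clusters 2 and 15 they overlapped for Matr3 and Rbm14 but not for Hnrnpk (80.3 to 98.0 against 48.9 to 77.2 CPM). The share of all genes apart between these clusters was not counted. Nono (59.9, 57.9 and 58.8 CPM), Sfpq (247, 237 and 261 CPM) and Pspc1 (118, 118 and 126 CPM) were more even.

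**Figure D4:**
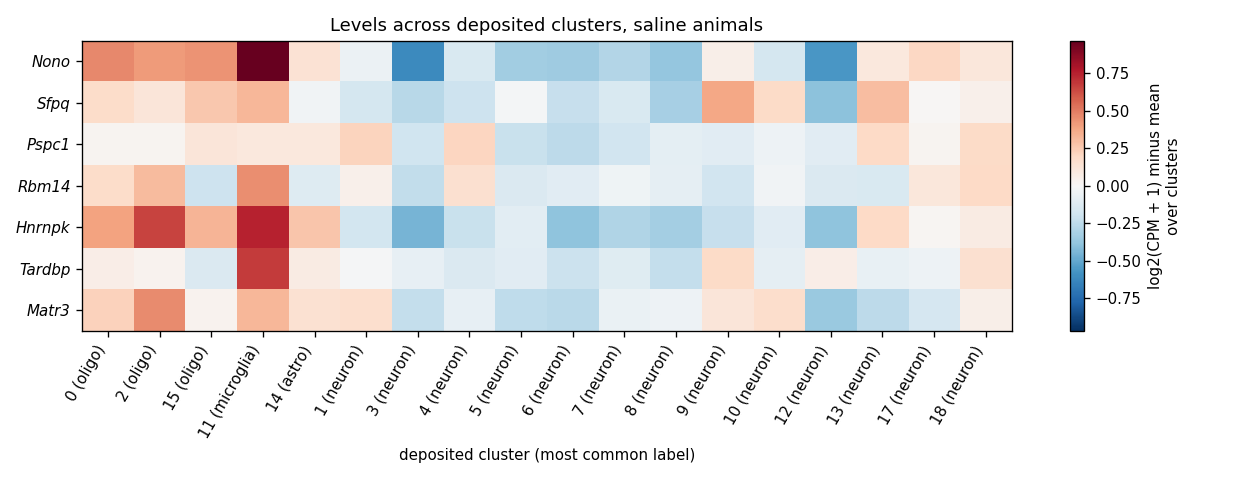
Level of each member in 18 deposited clusters of saline animals, as log2(CPM + 1) minus its mean over the clusters, with clusters ordered by their most common label. Nono and Hnrnpk are high in the oligodendrocyte clusters 0, 2 and 15 and in microglial cluster 11 and low in neuronal cluster 3, while Pspc1 is nearly flat.

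Of the pairs of members, Nono and Hnrnpk had the most similar pattern over these 18 clusters (Pearson r of log2(CPM + 1) 0.926), and Sfpq and Rbm14 the least (0.258). Within the DBHS family r was 0.764 for Nono and Sfpq, 0.578 for Nono and Pspc1 and 0.350 for Sfpq and Pspc1. Among 7784 genes with a mean of 20 CPM or more, the 2 closest to Nono were Bicra (0.982) and Slc33a1 (0.973), to Hnrnpk Phf20 (0.974) and Eef1a1 (0.971), to Sfpq Spata13 (0.904) and Erich1 (0.877) and to Pspc1 Gmps (0.915) and Frg1 (0.871). For Tardbp they were Ppp1r9b (0.926) and Clta (0.915), for Rbm14 Mrps18a (0.923) and Eif2b5 (0.880), and for Matr3 Babam1 (0.923) and U2surp (0.920). The clusters share their animals and libraries and differ in depth, so these are descriptions.

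In the list of other paraspeckle proteins, 16 of the 30 tested were higher in oligodendrocytes than in neurons and 11 lower, with a median of 0.17, beside 37.3% higher, 43.1% lower and a median of -0.084 over all genes. The largest positive differences were in Fign, a microtubule-severing ATPase (2.48 ± 0.055, SE), Zfp24, a zinc finger protein needed for myelination (0.76 ± 0.065), and Cirbp, a cold-inducible RNA-binding protein (0.66 ± 0.068). The largest negative differences were in Celf6, a splicing regulator (-2.67 ± 0.14), Ss18l1, a chromatin remodelling subunit of neurons (-1.38 ± 0.083), and Ahdc1 (-1.18 ± 0.088).

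Some members differed between the deposited batches. In a test of batch with group in the model, added after seeing the data, 3 of 7 passed in oligodendrocyte-labelled nuclei: Sfpq (adjusted p 0.00266, edgeR), Matr3 (0.0114) and Nono (0.0343). Over all genes tested 13.1% passed. What the batch stands for is not said in the labels. The same 3 of 7 passed in neuron-labelled nuclei, with adjusted p-values of 0.000498, 0.00218 and 0.0237, where 20% of genes passed; both labels come from the same 17 libraries. In astrocytes and microglia 0 of 7 passed, beside 1.38% and 2.58% of genes.

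Sfpq in oligodendrocyte-labelled nuclei had 274 to 310 CPM in the 3 animals of batch 1, 215 to 245 in the 4 of batch 2, 221 to 239 in the 5 of batch 3 and 257 to 279 in the 5 of batch 4. Batches 2 and 3 lay wholly below batches 1 and 4, a split read from the values, and the share of all genes with it was not counted. The fitted difference of batch 3 from batch 1 was -0.46 on the log2 scale. In neurons the same batches had 224 to 258, 176 to 190, 170 to 187 and 189 to 219 CPM, so batches 2 and 4 overlapped there. Matr3 ran the other way, with 81.7 to 84.4 CPM in batch 1 and 113 to 127 CPM in batch 3 of oligodendrocytes, a fitted difference of 0.50. Nono was highest in batch 1, at a mean of 65.7 CPM against 51.4 CPM in batch 4.

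Batch 1 also had the higher summed oligodendrocyte markers in these nuclei (13665 to 14591 CPM, against 12131 to 13193 in the others), the lower neuronal markers (668 to 847 CPM against 873 to 1574) and 1600 to 1836 UMIs a nucleus against 1096 to 1634. Their part in the batch difference was not tested. Leaving out each animal in turn, Sfpq passed in oligodendrocytes in 17 of 17 cases and Matr3 in 17 of 17, but Nono in 4 of 17 (adjusted p up to 0.189, edgeR). In neurons Nono passed in 15 of 17.

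In the list of other paraspeckle proteins, 4 of 29 passed the batch test in oligodendrocyte-labelled nuclei, beside 13.1% of all genes, a share near that background, and 9 of 30 passed in neuron-labelled nuclei beside 20% of all genes. The 4 are named here after their values were seen. Cirbp and Rbm3, both cold-inducible RNA-binding proteins, were highest in batch 3, at 0.66 and 0.52 above batch 1 on the log2 scale (adjusted p 0.00799 and 0.00652, edgeR). Rbm4b, a splicing factor, stood 0.27 above in batch 3, and Fam98a had -0.39 in batch 2.

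**Figure D5:**
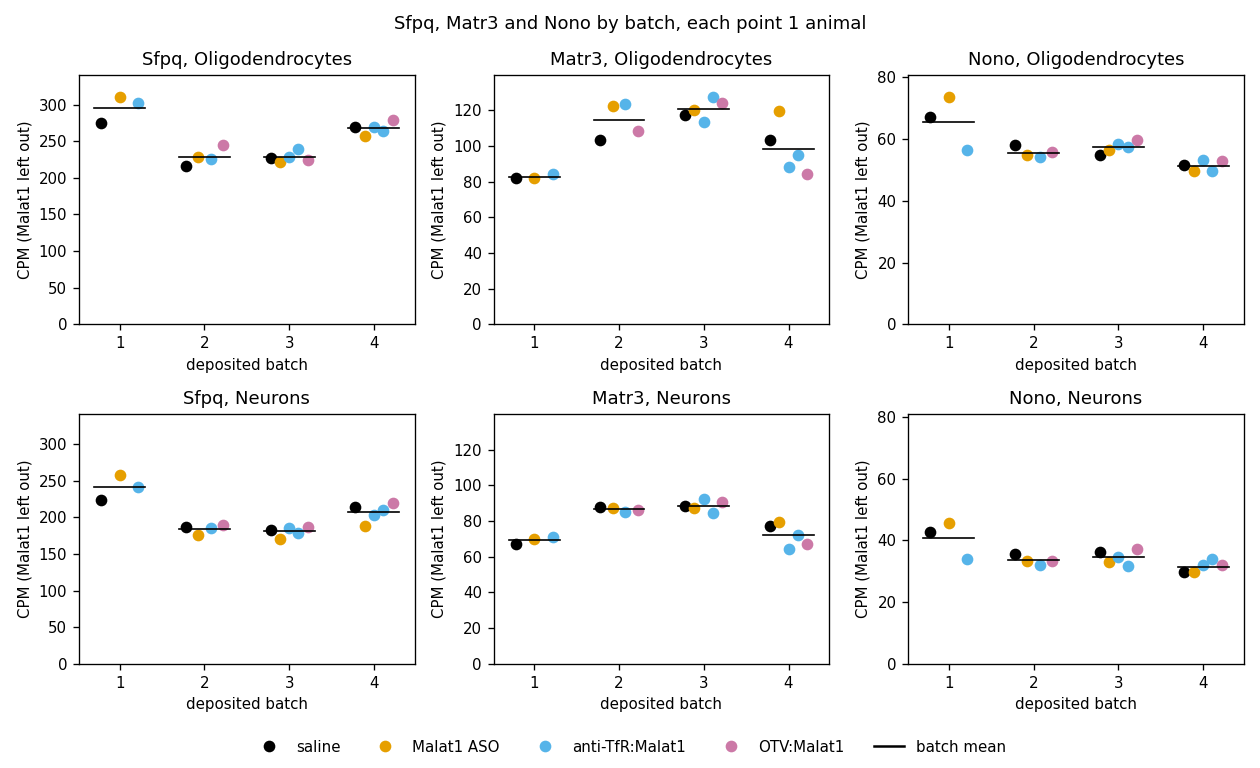
Levels of Sfpq, Matr3 and Nono in CPM without Malat1 by deposited batch, in oligodendrocyte-labelled (top) and neuron-labelled (bottom) nuclei, with 1 point an animal coloured by treatment and the batch mean as a line. By batch mean Sfpq is lowest in batches 2 and 3 in both labels, and Matr3 lowest in batch 1 of the oligodendrocytes (mean 82.7 CPM).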

How the data were processed

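Single-nucleus RNA was counted by the authors as integer UMI counts per gene and nucleus, deposited as 1 matrix; each nucleus's sum was checked against its deposited total. The submitters' processing notes name Cell Ranger 6.0.1, Seurat 4 and the build mm10. The authors also deposited cell type labels, clusters, doublet calls and batch; the label reference, doublet caller and meaning of batch are not given in the sources used here. Of the metadata columns, 12 were not used.

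UMIs were summed per animal and label. edgeR 4.0.16 (filterByExpr, TMM, quasi-likelihood, all 17 animals) gave 2-sided p-values, adjusted by Benjamini-Hochberg over all genes, with a threshold of 0.05. Label contrasts used saline animals with the animal as block. Alternatives included DESeq2 1.42.0, RLE, limits on nuclei, batch or number blocks and leaving out each animal. Members and lists were chosen with earlier results of these data known. Named were the 7 members, Malat1, Neat1, and from the other list 3 set genes (1 listed gene and 1 marker are not reported here and were left out of their lists), those past a treatment threshold (none passed) and the 3 largest each way between oligodendrocytes and neurons. Hnrnph1, Rbmx, Rbm3, Rbm4b and Fam98a were named after their values were seen. On simulated OTV:Malat1 against saline counts (14259 genes), 33 of 50 genes at a log2 change of -1 and 10 of 50 at -0.5 were recovered, with 8 false calls. Litters are not given in the sources used here.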

Additional observations from a re-analysis of the deposited data

Results flagged for a closer look

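Of 21 groups of animals checked for a sample apart from its group (7 members, 3 groups of 4 or more), 1 was marked: Matr3 in oligodendrocyte-labelled nuclei of Malat1 ASO replicate 1, with 81.7 CPM against 119 to 123 CPM in the other 3 animals, a gap of 0.919 of the group's range. About 1 in 20 such groups would be marked with no real difference. This animal belongs to batch 1, whose saline and anti-TfR:Malat1 animals had 82.0 and 84.4 CPM.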

How the results depend on the processing

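With treatment, 0 members passed in any tested label, comparison or alternative, and with 3 treated animals changes of 0.5 on the log2 scale were seldom recovered on simulated counts. Member changes lay near 0, and the sign turned in 77 of 840 combinations of change and setting. For OTV:Malat1 against saline, batch as a block gave 0.055 for Sfpq and -0.095 for Matr3, the largest cluster gave -0.028 for Matr3, and exact permutation on CPM gave 0.018 for Sfpq and 0.014 for Rbm14. CPM over all UMIs, Malat1 included, gave 0.091 for Nono, 0.15 for Sfpq, 0.11 for Pspc1, 0.064 for Tardbp, 0.14 for Rbm14, 0.20 for Hnrnpk and 0.18 for Matr3, all 7 above 0, beside a median of 0.18 over all genes. For Malat1 ASO, nuclei of 1000 or more UMIs gave -0.00066 for Rbm14. For OTV:Malat1 against anti-TfR:Malat1, Pspc1 had 0.10 with the replicate block, 0.035 with batch, 0.0096 without doublets, 0.024 in nuclei of 1000 or more UMIs, 0.014 in the most common clusters, 0.075 in the largest cluster and 0.044 by exact permutation. There batch gave 0.036 for Nono, and exact permutation 0.033 for Nono, 0.014 for Hnrnpk and 0.0032 for Matr3. CPM over all UMIs gave 0.11 for Nono, 0.050 for Sfpq, 0.12 for Pspc1, 0.065 for Tardbp, 0.048 for Rbm14, 0.093 for Hnrnpk and 0.082 for Matr3. The median over all genes there was 0.13. The cause was not tested.

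Leaving out 1 animal, OTV:Malat1 against saline ran from -0.14 to 0.068 for Sfpq, -0.13 to 0.010 for Pspc1, -0.10 to 0.044 for Rbm14, -0.17 to 0.19 for Hnrnpk and -0.085 to 0.14 for Matr3. For anti-TfR:Malat1 it ran from -0.029 to 0.10 for Sfpq, -0.12 to 0.020 for Pspc1, -0.10 to 0.028 for Tardbp, -0.0093 to 0.085 for Rbm14, -0.0021 to 0.13 for Hnrnpk and -0.046 to 0.11 for Matr3. For Malat1 ASO it ran from -0.11 to 0.10 for Nono, -0.061 to 0.10 for Sfpq, -0.081 to 0.060 for Pspc1, -0.040 to 0.054 for Rbm14, -0.18 to 0.064 for Malat1 and -0.0019 to 0.14 for Neat1. For OTV:Malat1 against anti-TfR:Malat1 it ran from -0.038 to 0.021 for Nono, -0.18 to 0.015 for Sfpq, -0.035 to 0.025 for Pspc1, -0.11 to 0.019 for Tardbp, -0.24 to 0.12 for Hnrnpk and -0.14 to 0.094 for Matr3.

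Between oligodendrocytes and neurons Pspc1 had -0.0058 with no filter and -0.023 to 0.073 leaving out 1 animal. Rbm14 passed there without doublets (0.22, where 80.9% of all genes passed) and with all 17 animals (0.23, where 90.4% did). Members that differed from astrocytes (1) became 4 with RLE (49.5% of all genes passed), 4 without Malat1 (48.4%), 5 with no filter (32.4%), 3 without doublets (48.1%), 2 in the most common clusters (49.5%), 4 with all 17 animals (68.5%) and 1 to 3 leaving out 1 animal (41.6% to 45.5%). From microglia (2) they became 0 by DESeq2 (47.5%), 4 with all 17 animals (72.0%) and 0 to 2 leaving out 1 animal (52.0% to 54.7%). From vascular cells (1) they became 0 by DESeq2 (27.6%), 0 in nuclei of 1000 or more UMIs (31.3%) and 0 to 1 leaving out 1 animal (28.9% to 30.9%). From perivascular macrophages (0) they became 4 with all 17 animals (54.1%). Over all UMIs, mean CPM was 51.0 for Nono and 63.2 for Tardbp with anti-TfR:Malat1, 107 for Pspc1, 16.7 for Rbm14 and 65.1 for Hnrnpk with Malat1 ASO, and 16.6 for Rbm14 and 68.3 for Hnrnpk with saline. On that scaling OTV:Malat1 animals had the highest mean of the 4 groups for 7 of 7 members, for example 55.2 for Nono and 80.7 for Hnrnpk. The same scaling put the median of all genes with OTV:Malat1 at 0.18 against saline and 0.13 against anti-TfR:Malat1. The share of all genes with OTV:Malat1 highest was not counted. Replicate numbers did not pair the animals (21 pairs, r -0.30 to 0.35, 12 over 0.1). Pairs within 1 batch had a mean r of 0.19 (27 pairs, 20 over 0.1) and pairs across batches -0.064 (79 pairs, 18 over 0.1). With replicate number as a block, OTV:Malat1 against saline gave -0.13 for Nono and -0.0072 for Sfpq, and no member's call changed.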
